A study of Mus musculus with 9 samples.

Results

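Glucocorticoid target genes were followed through single-cell RNA sequencing of the mouse brain in a study of sleep loss. The 10 genes were Tsc22d3, Fkbp5, Sgk1, Ddit4, Cdkn1a, Zbtb16, Pdk4, Klf9, Errfi1 and Arrdc2. They were chosen by name, as textbook targets of the glucocorticoid receptor, from the 18634 genes in the count table, and all 10 had a row there. The choice was made with earlier results of these data known. The study pooled the cortex, hypothalamus or brainstem of 3 male C57BL/6 J mice, 9 to 11 weeks old, into 1 library for each region and sleep group. The normal sleep (NS) group was left undisturbed, and the sleep deprived (SD) group was kept awake for 12 h from lights on. The recovery sleep (RS) group was kept awake in the same way and then allowed to sleep. The labels give the time of recovery both as 24 h and as 12 h, and the study's own report states 24 h. All tissue was taken at zeitgeber time (ZT) 12, dissociated with papain and cleared of myelin debris, so the suspensions hold the cells that survive this treatment. Plasma corticosterone, which the study also assayed, is not analysed here.

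Glucocorticoids, corticosterone in the mouse, are released from the adrenal gland in a daily rhythm that peaks near the start of the active phase, and further release follows stress. The hormone enters cells and binds the glucocorticoid receptor, which is held ready by Hsp90 and its co-chaperones. The bound receptor moves to the nucleus, where it binds short inverted repeats in DNA and switches target genes on. The 10 genes cover several roles: feedback on the receptor (Fkbp5), restraint of inflammatory signalling (Tsc22d3, also called Gilz), ion transport and survival signalling (Sgk1), restraint of mTOR (Ddit4), cell cycle arrest (Cdkn1a), transcription (Klf9 and Zbtb16), fuel choice in mitochondria (Pdk4), restraint of the EGF receptor (Errfi1) and receptor trafficking (Arrdc2). Most of them respond to other signals as well.

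The table held 29571 cells and 31468255 unique molecular identifiers (UMIs, 1 for each captured RNA molecule), and it marked each cell with 1 of 9 library codes. The codes fall into 3 stems of 3, and what a stem or a code stands for is not given in the sources used here. One library could be placed. All of the 1999 cells held here from the study's list of brainstem NS barcodes were found in library 7, in the order in which the codes first appear, and no other library held more than 13 of these barcodes. The other 8 libraries are therefore given by number, with no region or sleep group, and no comparison between sleep groups is made. Each region and sleep group had 1 library, with no replicate, and since the codes are not mapped to these groups no test across samples was made. Intervals below are exact 95% intervals that cover counting error only.

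The libraries held 2575 to 3916 cells and 1522766 to 5488950 UMIs, with a median of 402 to 1055 UMIs per cell. Libraries 4 to 6 stood apart. Pituitary hormone genes, led by Gh, took 30.0% to 37.9% of their UMIs and at most 0.00959% in the other 6 libraries. Mitochondrial genes took 2.55% to 12.3% and hemoglobin genes 0.0837% to 6.79%. Levels are UMIs of a gene per 1000000 UMIs (CPM), and each level across libraries was also computed on a total that leaves these 3 gene groups out (the reduced total). Between 5 and 25 barcodes were shared by any pair of libraries, and 3.74% of cells had a barcode that occurs in another library. The doublet caller Scrublet marked 0.473% of cells, too few to count as having worked, so no cell was removed. The 10 immediate early and dissociation-linked genes (such as Fos and Hspa1a) summed to 933.1 to 2732.5 CPM, highest in libraries 5 and 6, and their part in the results was not tested.

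The promoter windows of these genes were searched for the letters of the receptor's DNA element. RefSeq (GRCm38.p6) gave 18 promoter windows for 9 of the 10 genes, each from 250 bases before to 50 bases after an annotated start; Zbtb16 had none. The 6-letter site AGAACA, or its reverse complement TGTTCT, was found on either strand in 4 of these 18 windows, against 19% of all 32851 windows of this length, a share near that of all windows. Of the 4 windows, 3 belong to Sgk1 and 1 to Tsc22d3. The full inverted repeat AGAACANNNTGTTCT, which reads the same on both strands and contains the 6-letter site at each end, was found in 3 of all 32851 windows (0.00913%), and 1 of the 3 is a start of Sgk1. With up to 2 of the 12 named letters different it was found in 1.84% of all windows and in 2 windows of Sgk1. These are letter matches in short windows, without evidence of binding, and receptor sites far from a start are outside them. The Sgk1 window with the exact repeat (chr10:21993640-21993939, plus strand) and the Tsc22d3 window with a 6-letter site (chrX:140600473-140600772, minus strand) are shown 5′ to 3′ because they hold the strongest match and the only match of the most abundant gene, with matched letters in capitals.
Sgk1 start with the repeat: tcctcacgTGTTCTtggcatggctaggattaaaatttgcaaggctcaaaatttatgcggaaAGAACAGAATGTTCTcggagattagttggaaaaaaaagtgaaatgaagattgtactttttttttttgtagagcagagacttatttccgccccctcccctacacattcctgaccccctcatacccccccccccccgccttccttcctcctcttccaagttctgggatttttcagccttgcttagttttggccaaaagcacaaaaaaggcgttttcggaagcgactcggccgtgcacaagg
Tsc22d3 start with a 6-letter site: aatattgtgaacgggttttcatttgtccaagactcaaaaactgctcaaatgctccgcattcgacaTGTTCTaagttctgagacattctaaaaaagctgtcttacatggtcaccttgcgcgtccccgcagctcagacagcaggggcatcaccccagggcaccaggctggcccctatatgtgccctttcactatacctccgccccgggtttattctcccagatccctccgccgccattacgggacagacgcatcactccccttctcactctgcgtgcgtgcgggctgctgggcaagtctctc
In the Sgk1 window the repeat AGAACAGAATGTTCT begins 189 bases before the start, and a separate 6-letter site TGTTCT begins 242 bases before it. In the Tsc22d3 window the site TGTTCT begins 185 bases before the start.

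At least 1 UMI of 1 of the 10 genes was seen in 14646 of 29571 cells (49.5%), and UMIs of at least 2 of them in 16.4%. The 10 genes gave 27846 UMIs, or 884.9 CPM, and Tsc22d3 alone gave 43.6% of these. The gene bodies, their total UMIs and their overall levels were as follows. Tsc22d3 (chrX:140539528-140600522) had 12128 UMIs and 385.4 CPM. Klf9 (chr19:23141226-23168129) had 3980 UMIs and 126.5 CPM, and Ddit4 (chr10:59949675-59951770) had 3514 UMIs and 111.7 CPM. These 3 genes were the best measured. Cdkn1a (chr17:29090979-29100722), Sgk1 (chr10:21882184-21999903) and Fkbp5 (chr17:28398753-28486149) had 2229, 1963 and 1940 UMIs. Errfi1 (chr4:150853796-150868889) had 1232 UMIs. Zbtb16 (chr9:48651797-48836225), Arrdc2 (chr8:70835129-70839720) and Pdk4 (chr6:5483351-5496278) were sparse, with 433, 241 and 186 UMIs. Positions are those of RefSeq on GRCm38.p6, the build that the submitters' processing notes name as GRCm38.

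**Figure D1:**
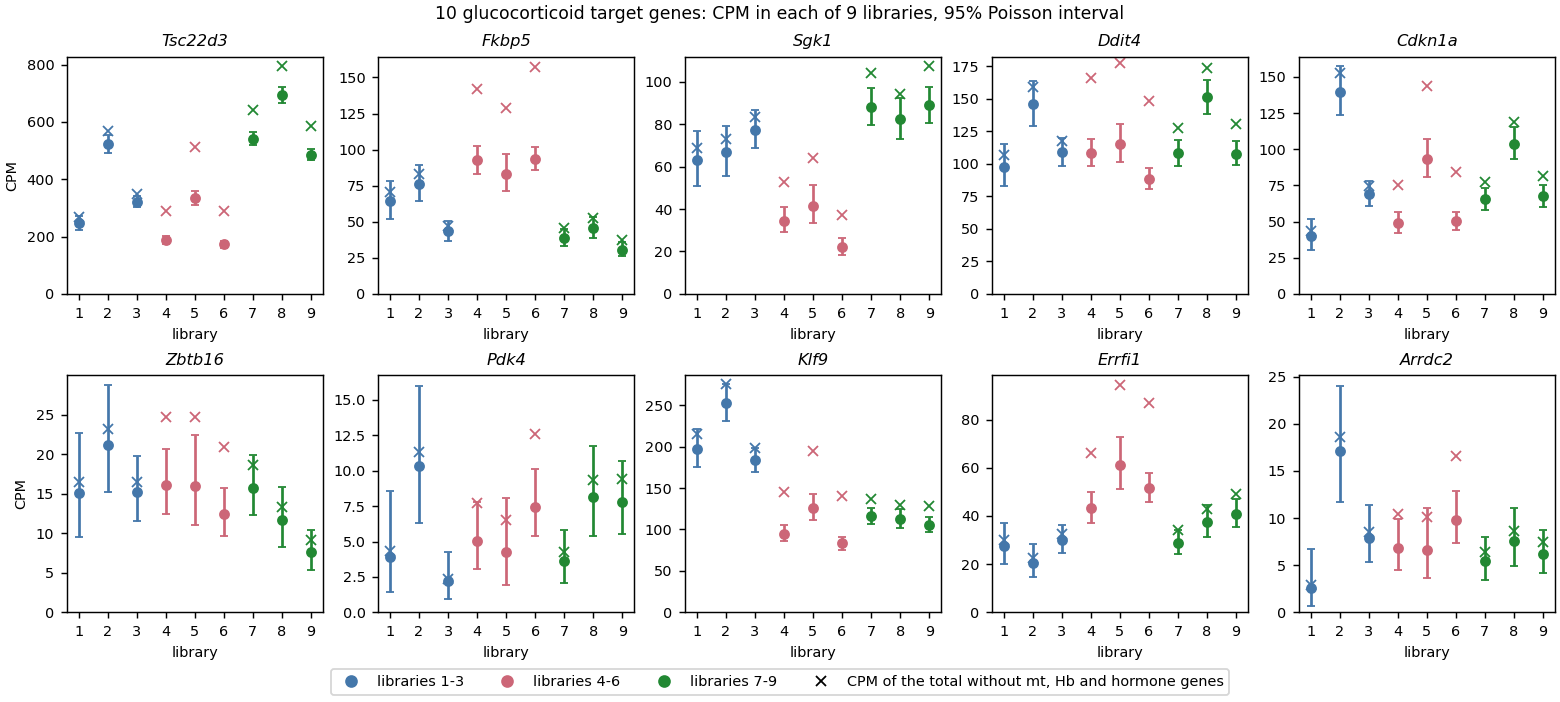
CPM of each of the 10 genes in libraries 1 to 9, with circles and exact 95% Poisson intervals for the level over all UMIs, and crosses for the level over the reduced total. Tsc22d3 stood highest in libraries 7 to 9 and library 2, and Fkbp5 and Errfi1 stood high in libraries 4 to 6.

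Across the 9 libraries the target genes moved by different amounts and not in one direction. Of the 9 genes with at least 200 UMIs over all cells (all but Pdk4), 7 had a highest library at least 2 times the lowest after adding 10 CPM to both, against 55.8% of the 11235 genes tested. The median of this ratio was 2.54 over the 9 genes and 2.13 over all genes tested. Libraries differ in region, sleep group and cell makeup, and fewer cells of a type and less RNA per cell cannot be told apart in a sum over a library.

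Tsc22d3, a leucine zipper protein that blocks NF-kB and AP-1 and is among the most widely induced receptor targets, gave 246, 522, 322, 188, 333, 173, 542, 693 and 485 CPM in libraries 1 to 9. Library 8 was 4.01 times library 6 (95% interval 3.72 to 4.33). The 3 libraries of the last stem, which include brainstem NS as library 7, were the highest together with library 2. In cells with at least 1000 UMIs, library 2 fell below library 3, as given further on. On the reduced total library 8 was still the highest, at 794.8 CPM, and library 1 the lowest, at 269.2 CPM.

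Fkbp5, the co-chaperone that lowers the receptor's affinity for hormone and is induced by it, gave 64.4, 76.0, 43.3, 92.6, 83.4, 93.6, 38.5, 45.6 and 30.8 CPM. Libraries 4 to 6, rich in pituitary hormone RNA, were the highest, and libraries 7 to 9 were low, with library 6 at 3.04 times library 9 (2.53 to 3.68). On the reduced total the medians were 70.4, 141.8 and 45.4 CPM in libraries 1 to 3, 4 to 6 and 7 to 9.

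Sgk1, a kinase that keeps sodium channels at the membrane, gave 63.0, 66.7, 77.3, 34.6, 41.5, 22.2, 87.9, 82.2 and 88.8 CPM. It was lowest in libraries 4 to 6, and library 9 was 4.00 times library 6 (3.26 to 4.93). Without libraries 4 to 6 its highest library was 1.41 times its lowest. Errfi1, the feedback inhibitor of the EGF receptor, was the reverse case, at 43.1, 61.3 and 51.6 CPM in libraries 4 to 6 and 20.7 to 40.8 CPM in the other 6.

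Klf9, a zinc finger transcription factor that answers to both corticosterone and thyroid hormone, gave 197.0, 252.4, 183.3, 94.8, 126.3, 83.3, 115.8, 112.4 and 105.8 CPM. The levels of libraries 1 to 3 were above those of the other 6 on either total, although library 5, at 194.5 CPM on the reduced total, came close to library 3, at 198.1 CPM. Ddit4, which shuts down mTOR complex 1 under stress and low energy, varied least of the 9 genes, between 88.2 CPM in library 6 and 151.1 CPM in library 8 (1.71 times, 1.51 to 1.94). Its extremes on the reduced total were other libraries, 107.0 CPM in library 1 and 177.1 CPM in library 5, and library 6 had 148.3 CPM. Cdkn1a, the p21 inhibitor of cyclin-dependent kinases, gave 40.1, 139.6, 69.2, 48.9, 93.3, 50.1, 65.5, 103.7 and 67.5 CPM. Library 2 was 3.49 times library 1 (2.63 to 4.68), within a single stem.

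Of the sparse genes, Zbtb16, a transcriptional repressor known as PLZF, ranged from 7.59 to 21.2 CPM. Pdk4, which turns off pyruvate dehydrogenase in fasting, ranged from 2.18 to 10.3 CPM. Arrdc2, an arrestin-domain adaptor, ranged from 2.63 to 17.1 CPM, and its lowest library rests on 4 UMIs.

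In each stem the library whose code ends in 2 (libraries 2, 5 and 8) was the highest for Tsc22d3, Ddit4 and Cdkn1a. This order was looked at after the values were seen. It held for 3 of the 9 genes tested and for 5.63% of all genes tested, on the reduced total. Over whole libraries no target gene was highest in every stem at the codes ending in 1 or 3, where 4.03% and 3.45% of all genes were. The codes' last digits are mapped to no sleep group here. Depth moved with this order in 2 of the 3 stems. Library 5 had the lowest median in its stem (565 against 869 and 1055 UMIs per cell) and so did library 8 (744 against 919 and 1014), while library 2, at 406, lay between libraries 1 and 3, at 402 and 854. The part of depth was not tested. In cells with at least 1000 UMIs, Cdkn1a kept the order, at 90.8, 69.4 and 95.8 CPM in libraries 2, 5 and 8. Tsc22d3 lost it in the first stem, where library 3 (177.9 CPM) passed library 2 (161.3 CPM), and Ddit4 lost it in 2 stems.

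The share of cells with a UMI followed depth as well as level. Tsc22d3 was seen in 12.2% of cells of library 1 and 39.5% of cells of library 7 (median depths of 402 and 919 UMIs). After every cell was thinned to 500 UMIs, which leaves out 5745 shallower cells, the range was 7.2% in library 6 to 26.0% in library 8. Klf9 ran from 8.87% to 19.4% of cells unthinned, and from 3.78% in library 6 to 12.5% in library 2 thinned. Fkbp5 had its highest unthinned share in library 6 (11.0%), and its thinned shares were 4.35%, 4.50% and 4.37% in libraries 4, 5 and 6. Pdk4 was seen in at most 0.943% of the cells of a library and Arrdc2 in at most 1.28%.

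The listed brainstem NS cells let the genes be set against the cell types that the study gave them. The 1999 listed cells are part of library 7, and 9 types had at least 40 of them. In 10 of 11 types checked, most of the fixed markers were at least 2 times the other listed cells. The exception was the 43 cells listed as oligodendrocytes. Of the oligodendrocyte markers reported here, Cldn11 was higher there (727 CPM against 3.24 CPM in the other listed cells). Mbp had 1 UMI, and Mag, Mobp and Ermn had none. Dcn, Col1a1 and Col1a2, from the list of fibroblast and leptomeningeal markers, were at least 2 times the other listed cells, but the other 3 markers of that list were lower than there: Lum was 23.1 against 56.0 CPM, Slc6a13 11.5 against 21.3 CPM and Igf2 46.2 against 50.9 CPM. By clustering, 39 of the 43 cells fell in the fibroblast or leptomeningeal-like class described further on. They are called Cldn11-rich cells here. Among the 168 listed pericytes, 48 fell in the same class.

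**Figure D2:**
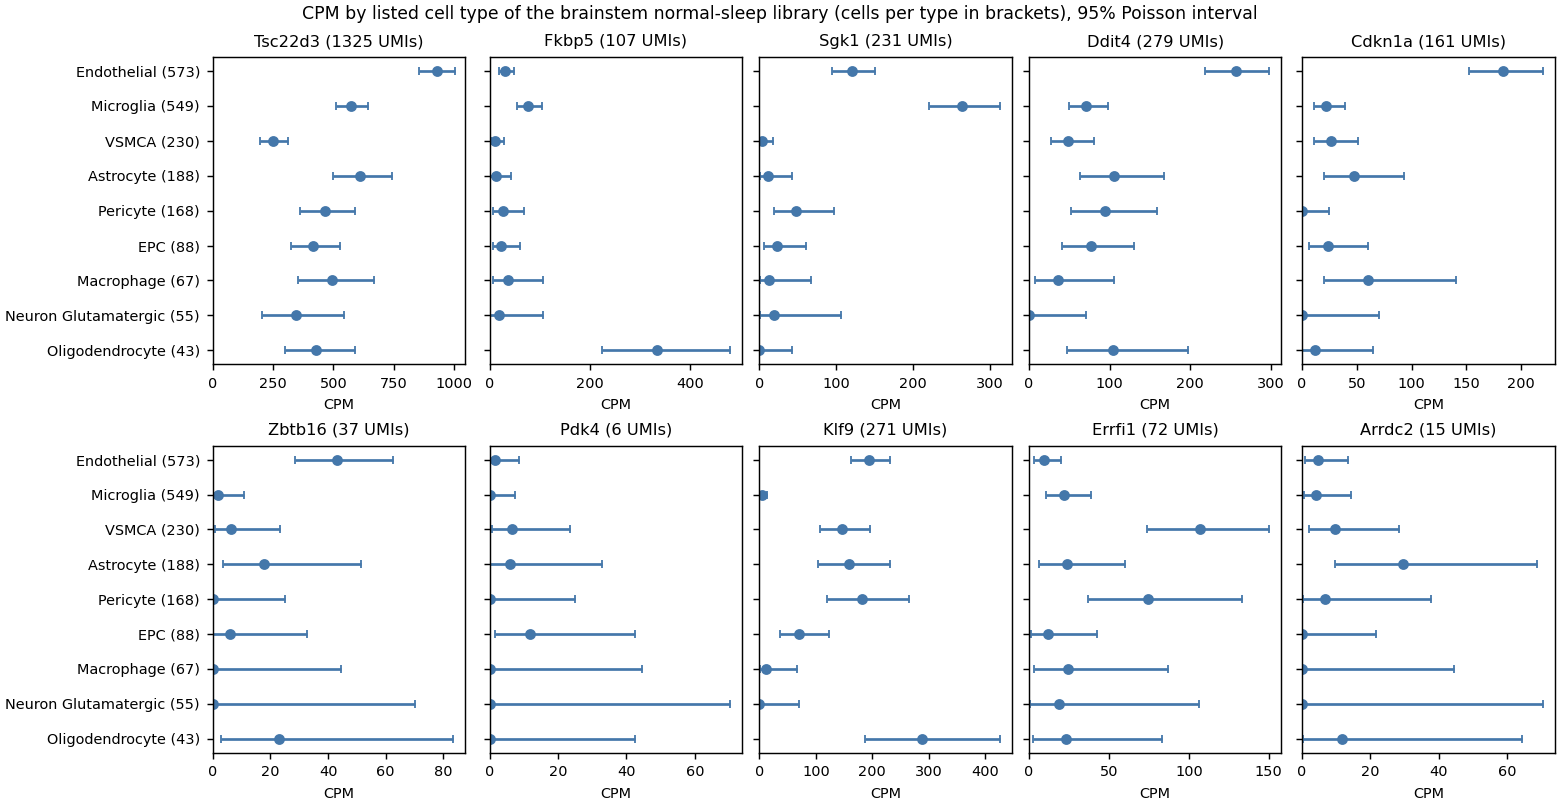
CPM of each gene in the 9 listed cell types of library 7 (brainstem NS) with at least 40 cells, with exact 95% Poisson intervals and the number of cells per type in brackets. Endothelial cells were highest for Tsc22d3, Ddit4, Cdkn1a and Zbtb16, microglia for Sgk1, VSMCAs for Errfi1, and the Cldn11-rich cells listed as oligodendrocytes for Fkbp5 and Klf9, although the interval of the highest type overlapped the next for Zbtb16, Errfi1 and Klf9.

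In brainstem endothelial cells the 10 genes summed to 1771.8 CPM, the highest sum of the 9 types, and 77.7% of the 573 cells had at least 1 of their UMIs. Cldn11-rich cells came next, at 1223.5 CPM and 67.4%, and glutamatergic neurons last, at 400.4 CPM and 23.6%. UMIs of at least 2 of the genes were seen in 48.8% of Cldn11-rich cells and in 37.7% of endothelial cells, whose median depth was lower (910 against 1651 UMIs). Of the 7 genes with at least 50 UMIs over the listed cells, 4 were at least 2 times as high in endothelial cells as in the other listed cells after adding 10 CPM to both (Tsc22d3, Ddit4, Cdkn1a and Klf9), against 12.6% of the 5703 genes tested. Cdkn1a, with 42 UMIs outside endothelial cells, reached the minimum only through the cells in which it is high. With the minimum set on the other listed cells alone, a choice made after seeing the data, the count was 3 of 6 (Tsc22d3, Ddit4 and Klf9), against 7.64% of 4279 genes. Tsc22d3 and Klf9 sat at the threshold, both at 2.03 times, so the count of 4 fell to 2 on the reduced total.

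Tsc22d3 gave 928.3 CPM in endothelial cells, 611.8 in astrocytes, 573.7 in microglia, 493.7 in macrophages, 466.4 in pericytes, 427.1 in Cldn11-rich cells, 416.7 in ependymal cells (EPCs), 343.2 in glutamatergic neurons and 249.9 in VSMCAs, the vascular smooth muscle cells of arteries. Endothelial cells were 1.52 times astrocytes (1.23 to 1.89), with intervals that did not overlap. From astrocytes down, each type overlapped the next in its interval. Tsc22d3 was seen in 57.2% of endothelial cells and 27.0% of VSMCAs, whose median depth was the higher (1319.5 against 910 UMIs). Every one of the 9 types had Tsc22d3 UMIs.

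Ddit4 was 256.0 CPM in endothelial cells (218.5 to 298.0) and 105.9 CPM in astrocytes, the next type, a ratio of 2.42 (1.48 to 4.18). The remaining types lay between 36.1 and 103.9 CPM, except glutamatergic neurons, with no UMI in 55 cells. Cdkn1a was more concentrated. It gave 119 of its 161 UMIs in endothelial cells, at 183.5 CPM against 26.2 CPM in the other listed cells (6.99 times, 4.88 to 10.2), and was seen in 15.9% of endothelial cells, 1.82% of microglia and no pericyte. Zbtb16 had 28 of its 37 UMIs in endothelial cells (43.2 CPM, 28.7 to 62.4), and fell under the minimum for the comparison.

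Sgk1 gave 264.2 CPM in microglia, 120.3 in endothelial cells and 47.3 in pericytes, 23.5 or less in the other types, and no UMI in Cldn11-rich cells. Microglia stood above endothelial cells by a ratio of 2.196 (1.65 to 2.94). It was the only one of the 7 genes at least 2 times as high in microglia, against 10.2% of genes tested. Sgk1 was seen in 17.3% of microglia and 11.3% of endothelial cells but in 0.435% of VSMCAs, at median depths of 796, 910 and 1319.5 UMIs, and free RNA can add UMIs to every type. Thinned to 500 UMIs, the microglial share was 9.78%.

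Klf9 gave 288.6 CPM in Cldn11-rich cells, 194.3 in endothelial cells, 182.5 in pericytes, 158.8 in astrocytes and 146.1 in VSMCAs, and each of these overlapped the next in its interval. Microglia had 2 Klf9 UMIs in 549 cells (3.94 CPM), and Klf9 was seen in 18.0% of endothelial cells against 0.364% of microglia.

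Fkbp5 gave 334.7 CPM in Cldn11-rich cells (224.2 to 480.7), 4.35 times microglia (2.60 to 7.22), the next type, at 76.9 CPM. The other 7 types lay between 9.74 and 36.1 CPM. Both Fkbp5 and Klf9 passed the 2-fold mark in Cldn11-rich cells, at 7.48 and 2.41 times after adding 10 CPM, against 4.84% of genes tested. These 43 cells had 29 Fkbp5 UMIs and 25 Klf9 UMIs, in 34.9% of cells each. Thinned, the Fkbp5 share was 19.05% and the Klf9 share 4.76%.

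VSMCAs, the smooth muscle of the arterial wall, had 107.1 CPM of Errfi1 (73.7 to 150.4), and endothelial cells had 9.25 CPM. The VSMCA level was 3.89 times that of the other listed cells after adding 10 CPM to both. This ratio is a description, since 33 of the 72 Errfi1 UMIs of the listed cells came from VSMCAs and the gene reached the minimum of 50 only through them. Listed pericytes had 74.4 CPM, 2.16 times the other listed cells after adding 10 CPM to both, against 6.26% of genes tested. Their interval overlapped that of VSMCAs (ratio with nothing added 1.44, 0.71 to 3.16). The pericyte value rests on part of the pericytes. All 11 Errfi1 UMIs came from the 48 listed pericytes of the fibroblast or leptomeningeal-like class (175.4 CPM), which had Dcn at 4784.7 CPM and Kcnj8 at 15.9 CPM. The 115 listed pericytes of the pericyte-like class, with Kcnj8 at 1020.7 CPM, had no Errfi1 UMI. Arrdc2, with 15 UMIs in all, had 5 of them in astrocytes (29.4 CPM), and Pdk4 had 6 UMIs in all listed cells, too few to place.

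To compare libraries within one kind of cell, all cells were clustered without the target and pathway genes, and clusters were named from fixed markers. The classes with at least 50 cells in a library were compared. The named classes held 78.9% of cells, and the rest stayed unnamed.

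**Figure D3:**
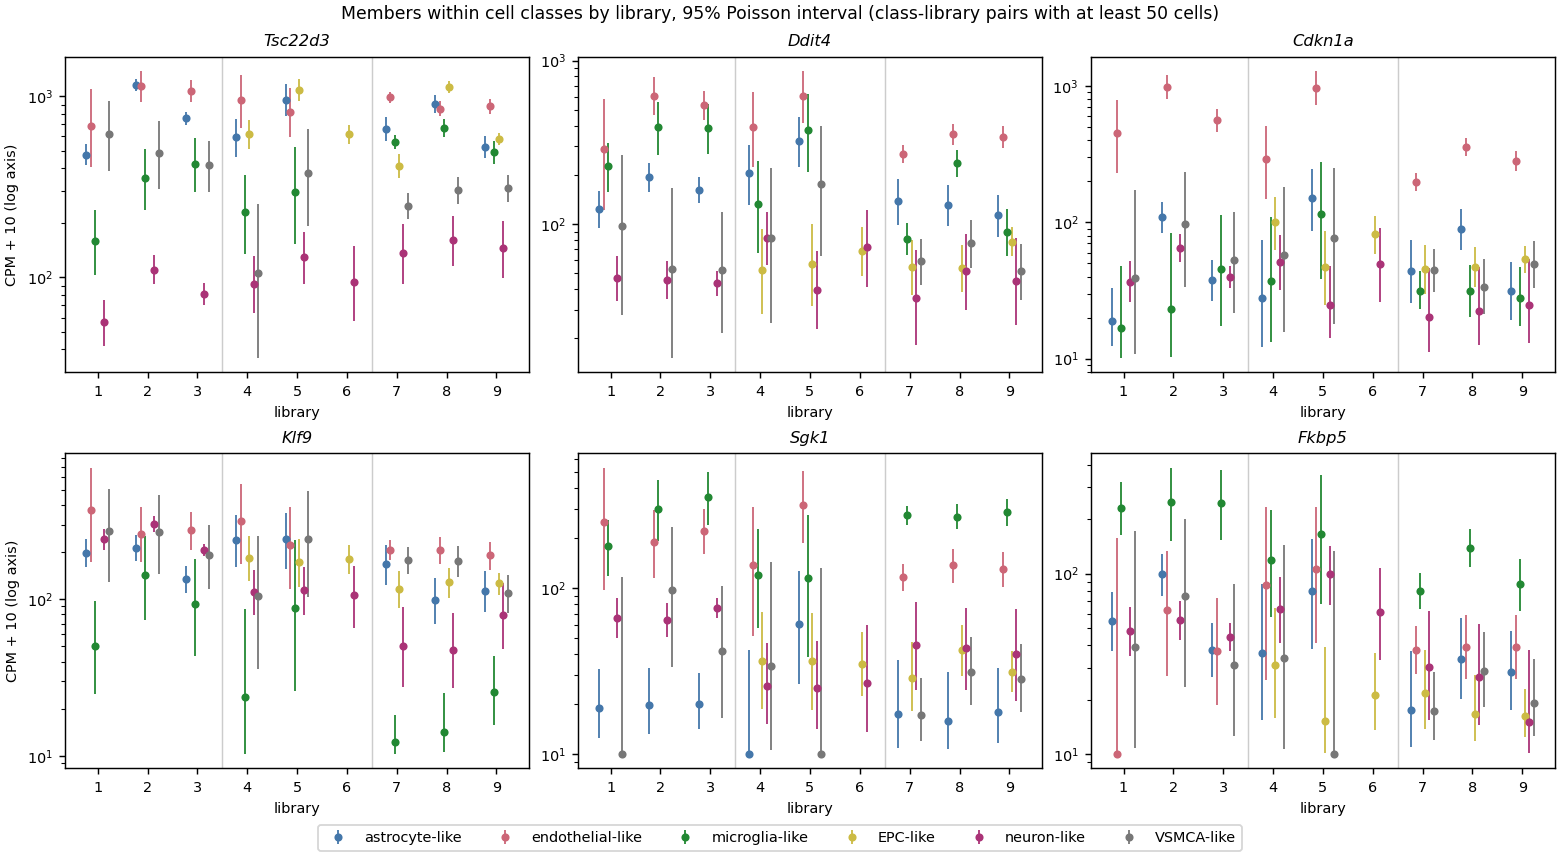
CPM + 10 (log axis) of 6 genes in 6 cell classes, for each library in which the class had at least 50 cells, with exact 95% Poisson intervals. Endothelial-like cells lay highest for Ddit4 and Cdkn1a of these 6 classes in each of the 8 libraries with enough of them, and neuron-like cells lay lowest of these classes for Tsc22d3 in all 9 libraries.

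Endothelial-like cells had the highest levels of Cdkn1a and Ddit4 among the 6 classes plotted, in each of the 8 libraries with enough of them. They held 742 of the 2229 Cdkn1a UMIs and 771 of the 3514 Ddit4 UMIs of all cells, and unnamed cells held 620 and 913. In endothelial-like cells Cdkn1a gave 438.8, 980.1, 551.7, 279.4, 963.8, 189.0, 347.6 and 272.4 CPM in libraries 1 to 5 and 7 to 9, against at most 141.0 CPM in the other classes shown in the plot by class. Library 2 was 5.19 times library 7 (3.98 to 6.73). Libraries 2 and 5 were the highest and did not overlap with libraries 7 to 9 in their intervals. Ddit4 ran from 258.8 CPM in library 7 to 600.7 CPM in library 2 (2.32 times, 1.70 to 3.12). Tsc22d3 lay between 678.2 CPM in library 1 and 1127.6 CPM in library 2 (1.66 times, 0.99 to 2.96). Of 5 target genes with at least 200 UMIs in endothelial-like cells, 3 passed 2-fold between libraries (Sgk1, Ddit4 and Cdkn1a), against 66.4% of genes tested in this class. In cells with at least 1000 UMIs, for which 4 libraries had enough cells, these were 2 of 5 and 17.9%. Ddit4 and Cdkn1a, 2 of these 5, were highest at the code ending in 2 in each of the 3 stems, against 7.86% of genes tested. In the second stem only libraries 4 and 5 had enough endothelial-like cells. Klf9 was highest at the code ending in 1 in each stem, as were 7.92% of genes tested, at 359.0, 304.8 and 197.0 CPM in libraries 1, 4 and 7. The library 1 value rests on 9 UMIs. Its interval overlapped that of library 9, the lowest (1.98 times, 0.88 to 3.94). In the third stem both orders rest on small gaps that turn on the reduced total, where library 9 (375.2 CPM) passed library 8 (375.0 CPM) for Ddit4 and library 8 (213.6 CPM) passed library 7 (213.0 CPM) for Klf9.

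Astrocyte-like cells carried Tsc22d3 at 466.4, 1146.2, 744.7, 582.8, 947.0, 652.3, 897.8 and 517.1 CPM in libraries 1 to 5 and 7 to 9. Library 2 was 2.46 times library 1 (2.10 to 2.89). In these cells the libraries with codes ending in 2 were the highest in each of the 3 stems for Tsc22d3 only, 1 of 3 target genes tested, against 9.38% of genes tested. In the second stem only libraries 4 and 5 had enough astrocyte-like cells. Tsc22d3, Ddit4 and Klf9, all 3 tested, passed 2-fold between libraries, against 53.6% of genes tested. In cells with at least 1000 UMIs, where 4 libraries had enough of them, 1 of 3 passed, against 48.6%. Cdkn1a lay between 8.88 and 141.0 CPM there and was also highest in libraries 2, 5 and 8 within their stems (98.6, 141.0 and 79.7 CPM), but with too few UMIs to be tested.

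EPC-like cells, the ciliated lining of the ventricles, had Tsc22d3 at 608.5, 1070.9, 607.5, 404.3, 1120.6 and 570.0 CPM in libraries 4 to 9. Libraries 5 and 8 stood above the other 4 with no overlap of intervals, and library 8 was 2.77 times library 7 (2.34 to 3.30). Tsc22d3 was 1 of 2 target genes tested that passed 2-fold, against 20.3% of genes tested, and 1 of 2 that were highest at the code ending in 2 in each of the 2 stems, against 12.6%. Klf9, the other, ran from 106.4 to 174.6 CPM, with higher levels in libraries 4 to 6 than in libraries 7 to 9. Its highest library, 4, was 1.64 times its lowest, 7 (1.01 to 2.63), although their 2 intervals overlapped. Pdk4 gave 17.9 CPM in EPC-like and 15.3 CPM in astrocyte-like cells over all libraries, and at most 7.49 CPM in the other named classes.

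Microglia-like cells had 104.3 to 342.5 CPM of Sgk1 over 8 libraries, and the lowest value, in library 5, rests on 4 UMIs. They were not the highest class for Sgk1 in every library. Endothelial-like cells had 239.4, 127.0 and 308.4 CPM in libraries 1, 4 and 5, against 168.3, 109.4 and 104.3 CPM in microglia-like cells. Several of these values rest on few UMIs, such as 16 in the endothelial-like cells of library 5. Fibroblast or leptomeningeal-like cells had 391.7 CPM in library 3 (23 UMIs), where microglia-like cells had 342.5 CPM (29 UMIs). Ddit4 in microglia-like cells gave 215.4, 382.7, 378.0, 123.1, 365.0, 71.4, 226.1 and 79.5 CPM in libraries 1 to 5 and 7 to 9, so that library 2 was 5.36 times library 7 (3.33 to 8.44). Fkbp5 and Ddit4, 2 of 4 target genes, were highest at the code ending in 2 in each stem, against 5.72% of genes tested. However, library 2 and library 3 differed little (237.5 and 236.2 CPM of Fkbp5). In the second stem only libraries 4 and 5 had enough microglia-like cells. Tsc22d3 ran from 148.1 CPM in library 1 to 659.4 CPM in library 8 and was higher in libraries 7 to 9 than in libraries 1 to 5. Klf9, with 37 UMIs in this comparison, had too few to be tested. It ran from 2.27 CPM in library 7 (2 UMIs) to 132.0 CPM in library 2 (10 UMIs), with no overlap of intervals, and was 82.7 CPM in library 3. All 4 genes tested passed 2-fold between libraries, against 67.5% of genes tested. In cells with at least 1000 UMIs, with 3 libraries left, this count was 1 of 4, against 18.3% of genes tested.

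Neuron-like cells had 46.6 to 150.4 CPM of Tsc22d3 over 9 libraries. In library 7 the 55 listed glutamatergic neurons stood higher, at 343.2 CPM (203.4 to 542.4), but 8 of their 18 Tsc22d3 UMIs came from the 6 cells that fell in other classes or stayed unnamed. The 49 that fell in the neuron-like class had 232.9 CPM (111.7 to 428.4), and the other 137 neuron-like cells of library 7 had 96.8 CPM (54.2 to 159.7). Klf9 in neuron-like cells gave 231.3, 293.7 and 197.1 CPM in libraries 1 to 3, 101.2, 104.1 and 96.2 CPM in libraries 4 to 6, and 40.4, 37.6 and 69.8 CPM in libraries 7 to 9. The intervals of libraries 1 to 3 lay above those of the other 6, while those of libraries 4 to 6 overlapped those of libraries 7 to 9. Library 2 was 7.81 times library 8 (4.06 to 17.3). Tsc22d3, 1 of 5 target genes tested, was highest at the code ending in 2 in each of the 3 stems, against 5.6% of genes tested. All 5 passed 2-fold between libraries here, against 83.6% of genes tested in neuron-like cells. Of these, Sgk1, Ddit4 and Fkbp5 reached the minimum of 200 UMIs only with their highest library included. Those libraries held 151 of 277 Sgk1 UMIs (library 3), 23 of 202 Ddit4 UMIs (library 4) and 24 of 209 Fkbp5 UMIs (library 5). Tsc22d3 and Klf9 reached the minimum without their highest library. Neuron-like cells of different libraries may be of different neuron types, which was not tested.

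Fibroblast or leptomeningeal-like cells had the highest Fkbp5 and Errfi1 of the named classes. Over all libraries they gave 205.3 CPM of Fkbp5 (177.9 to 235.9) and 197.1 CPM of Errfi1 (170.2 to 227.1). Fkbp5 ran from 128.4 CPM (36 UMIs) to 475.1 CPM (15 UMIs) over the 7 libraries with enough of these cells. Errfi1 ran from 85.2 CPM (5 UMIs) to 314.8 CPM (14 UMIs), with intervals that overlapped. Sgk1 ran from 18.8 CPM in library 7 (5 UMIs) to 391.7 CPM in library 3 (23 UMIs), with no overlap. Choroid plexus epithelium-like cells, 82 of 87 of them from library 9, had 296.4 CPM of Sgk1 in that library (244.9 to 355.5), seen in 54.9% of the 82 cells, with Tsc22d3 at 84.3 CPM. The Sgk1 interval overlapped the level of microglia-like cells there, 277.1 CPM. Pituitary endocrine-like cells, found in libraries 4 to 6, had 60.1 CPM of Tsc22d3 (52.8 to 68.1) and 70.6 CPM of Fkbp5 (62.7 to 79.3). On the reduced total, which leaves out their hormone RNA, these were 107.8 and 126.7 CPM. The unnamed cluster led by Gh had 116.5, 64.8 and 105.6 CPM of Fkbp5 in libraries 4, 5 and 6, and 76.6, 73.4 and 67.5 CPM of Tsc22d3, so that Fkbp5 was above Tsc22d3 in libraries 4 and 6 and below it in library 5. In this cluster Fkbp5 on the reduced total was 318.7, 202.6 and 291.0 CPM and Tsc22d3 209.6, 229.7 and 186.0 CPM, so that Fkbp5 in libraries 4 and 6 was above the 241.3 CPM of fibroblast or leptomeningeal-like cells on that total. HbVC-like cells, which are filled with hemoglobin RNA, had 11.5 CPM of Tsc22d3 in library 7 (3 UMIs) and 71.1 CPM in library 9 (11 UMIs). On the reduced total these were 230.2 and 942.9 CPM.

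Nr3c1, the glucocorticoid receptor, gave 55.6 to 107.9 CPM over the 9 libraries, and Nr3c2, the mineralocorticoid receptor, 6.57 to 15.5 CPM. On the reduced total Nr3c1 ran from 85.3 CPM in library 8 to 116.6 CPM in library 3. Nr3c2 ran from 7.18 CPM in library 1 to 20.1 CPM in library 4 on that total. Of 11 genes of this list with enough UMIs, 4 passed 2-fold between libraries (Hsd11b1, Hsp90aa1, Ncoa1 and Abcb1a), against 55.8% of genes tested. Of the same 11 on the reduced total, 1 (Ncoa1) was highest at the code ending in 2 in each stem, against 5.63% of genes, and 3 (Hsp90aa1, Hsp90ab1 and Ptges3) at the code ending in 3, against 3.45% of genes. Hsd11b1, which regenerates active hormone inside cells, was 40.9 to 60.0 CPM in libraries 1 to 3 and 11.0 to 26.7 CPM in the other 6. On the reduced total its level in library 4, 41.0 CPM, came close to that in library 3, 44.2 CPM. Hsd11b2, which inactivates the hormone, had 3 UMIs in all cells.

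**Figure D4:**
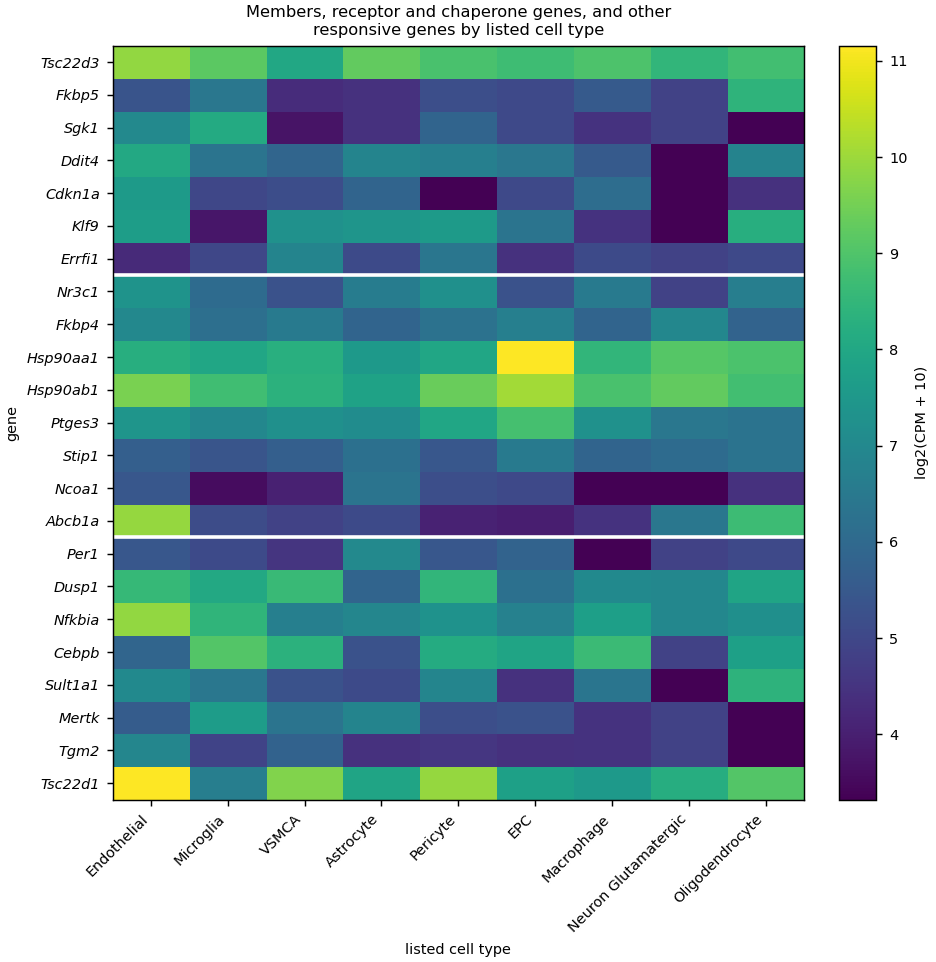
Level as log2(CPM + 10) of the target genes (top block), the receptor, ligand-handling and chaperone genes (middle) and the other responsive genes (bottom) with at least 50 UMIs over the listed cells, in the 9 listed types. Endothelial cells were bright for Abcb1a, Nfkbia and Tsc22d1, and EPCs for Hsp90aa1.

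In the listed brainstem NS cells, 2 of 8 genes of the receptor list passed 2-fold in endothelial cells, Nr3c1 (154.2 CPM) and Abcb1a (953.0 CPM), an efflux pump of the blood-brain barrier, against 12.6% of genes tested. Nr3c1 was next highest in pericytes (142.0 CPM) and low in EPCs and VSMCAs (29.3 and 29.2 CPM). Hsp90aa1 (2247.7 CPM), Hsp90ab1 (1068.1 CPM) and Ptges3 (451.9 CPM), the Hsp90 chaperones and the p23 co-chaperone, passed 2-fold in EPCs, against 10.5% of genes tested. Ncoa1, a receptor coactivator, had 70.6 CPM in astrocytes (12 UMIs) and reached the minimum, at 51 UMIs, only with these cells included. Hsd11b1, with 35 UMIs, was under the minimum and gave 135.3 CPM in astrocytes and 54.1 CPM in pericytes.

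Among other genes known to respond to glucocorticoids, 12 of 14 with enough UMIs passed 2-fold between libraries, against 55.8% of genes tested. One of the 12, Nfil3, reached the minimum, at 209 UMIs, only with its highest library, 5 (13.2 CPM), included. It passed at 2.004 times after adding 10 CPM. Of the same 14, 5 (Cebpb, Sult1a1, Tgm2, Map3k6 and Angptl4) were highest at the code ending in 2 in each stem on the reduced total, against 5.63% of genes tested, an order looked at after the values were seen. Cebpd was not analysed here. In the listed cells, 3 of 8 passed in endothelial cells, against 12.6% of genes tested, and with the minimum set on the other listed cells 2 of 7 (Nfkbia and Tsc22d1), against 7.64%. Nfkbia, the inhibitor of NF-kB, gave 945.3 CPM there, Tsc22d1, a relative of Tsc22d3, 2274.5 CPM, and Tgm2, a transglutaminase, 111.0 CPM, with 72 of its 104 UMIs in these cells. Per1, a clock gene, passed in astrocytes (117.7 CPM), against 8.7% of genes tested. Cebpb (528.3 CPM) and Mertk (193.2 CPM) passed in microglia, against 10.2% of genes tested, and Sult1a1 (323.2 CPM) in Cldn11-rich cells, against 4.84%.

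The genes most like the 3 best measured targets across the 9 listed types were taken by the Pearson correlation r of log2(CPM + 10), among 1627 genes with at least 200 UMIs. The types share 1 library, its depth and its free RNA. Tsc22d3 was most like Alas1 (r = 0.905), the first enzyme of heme synthesis, Slc3a2 (r = 0.890), a subunit of amino acid transporters, and Reep3 (r = 0.854). Ddit4 was most like Ifi27 (r = 0.945), Marc2 (r = 0.938) and Tjp1 (r = 0.932), a tight junction protein. Klf9 was most like Ndufs5 (r = 0.918) and Ndufb4 (r = 0.911), subunits of respiratory complex I, and Cystm1 (r = 0.889).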

How the data were processed

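The authors made a single matrix of raw UMI counts, with genes by cells of all libraries, and deposited it without normalization. The submitters' processing notes name Cell Ranger 2.2.0, R 3.5.3 and the build GRCm38. Cell types of brainstem NS cells came from the study's supplementary list, of which 1999 cells are held here. The genes and lists were chosen with earlier results of these data known.

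Counts were summed over cells and divided by total UMIs (CPM). Poisson intervals for sums, Clopper-Pearson intervals for shares and conditional binomial intervals for ratios were exact (95%) and cover counting error only. A count of 0 allows up to 3 UMIs. Ratios of at least 2 were counted after adding 10 CPM. Cells were clustered with scanpy 1.11.5 and leidenalg 0.10.2 (2000 variable genes, 13 principal components, 20 neighbours, resolution 1), and a cluster was named from fixed markers that were 2 times as high as elsewhere and present in 10% of its cells, by a rule settled after clusters were seen. Named genes were the 10 targets, genes of 3 fixed lists, and the 3 genes most like each of the 3 best measured targets. No doublets were removed. Ratio, interval and thinning code was tested on simulated data. Alternatives were cells with at least 1000 UMIs, the reduced total, mean over cells, removal of the top 5% of Scrublet scores, thinning to 500 UMIs, other clusterings, free RNA subtraction and other minimums. One marker gene of the lists is not reported here.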

Additional observations from a re-analysis of the deposited data

How the results depend on the processing

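No paired analysis was possible because the library codes are not mapped to regions and sleep groups, apart from library 7, and no library was left out of a group for the same reason. On the reduced total, target genes at least 2 times the other listed cells in endothelial cells went from 4 to 2 of 7, against 12.1% of all genes tested. With the mean over cells of CPM, and equally with clusters of library 7 in place of the listed types, the count went from 1 to 2 in microglia (10.2% and 11.2% of all genes under these alternatives) and from 1 to 0 in pericytes (7.28% and 6.79%). With the minimum of 50 UMIs set on the other listed cells, an alternative chosen after seeing the data, the count in VSMCAs went from 1 to 0, against 4.13% of all genes. With only cells of at least 1000 UMIs, target genes that passed 2-fold between libraries went from 3 to 1 in astrocyte-like and from 4 to 1 in microglia-like cells, while the share of all genes went from 53.6% to 48.6% and from 67.5% to 18.3%. With only the 6 libraries without pituitary hormones, the count in neuron-like cells went from 5 to 3, and the share of all genes from 83.6% to 68.3%. The other alternatives moved the counts of target genes by at most 1.5 times, but the share of all genes beside them fell from 66.4% to 17.9% in endothelial-like cells of at least 1000 UMIs, with 4 of 8 libraries left, and from 20.3% to 3.04% in EPC-like cells of the libraries without pituitary hormones, with 3 of 6 left. Without the pituitary hormone libraries this share also fell from 53.6% to 34.1% in astrocyte-like and from 67.5% to 40.1% in microglia-like cells. With the mean over cells it rose from 20.3% to 31% in EPC-like cells. On the reduced total it rose from 4.84% to 7.79% in Cldn11-rich cells. With the minimum on the other listed cells it fell from 10.2% to 5.82% in listed microglia. The order by the code's last digit, with alternatives chosen after seeing the data, held for 1 of 9 genes in cells of at least 1000 UMIs (3.52% of all genes), for 5 with the mean over cells (7.13%), for 3 without the top Scrublet scores (6.66%), and for 3 on both totals (6.73% on all UMIs and 5.63% on the reduced total). Of 214 alternative values outside these counts, none changed direction and 44 moved, 18 of them shares after thinning. A further 14 moved in cells of at least 1000 UMIs, 5 on the reduced total and 3 with the mean over cells. Another 3 moved with genes of at least 50 UMIs and 1 with clusters in place of the listed types. Even so, the order of single libraries changed under some alternatives, as given above for Tsc22d3, Ddit4 and Klf9. With genes of at least 50 UMIs, the 3 genes most like Tsc22d3 kept 1 and those most like Ddit4 and Klf9 kept 0. The cause of these shifts was not tested. A count of 0 in the 55 glutamatergic neurons allows up to 57.2 CPM at 3 UMIs, and the exact interval reaches 70.3 CPM. Low genes therefore could not be placed in small types.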
